A study of Mus musculus with 111 samples.

Results

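Control embryos of experiment 2 were compared with control embryos of experiment 3 in a study of single mouse 2-cell embryos in which Nr5a2, a nuclear receptor, was knocked down. None of these embryos received siRNA against Nr5a2, so the comparison describes the baseline difference between 2 experiments. The members were the 7 control embryos of experiment 2 (Exp2 control, numbered 2 to 8) and the 25 control embryos of experiment 3 (Exp3 control), 32 of the 111 embryos analysed here. The remaining embryos were 16 with knockdown in experiment 2 (Exp2 knockdown), 23 with knockdown in experiment 3 (Exp3 knockdown), and 16 with knockdown and 24 controls in experiment 1. All embryos were of strain B6129F1. Oocytes at the germinal vesicle stage received a pair of siRNAs (20 µM of each), against Nr5a2 or as a control, together with marker RNA at 150 ng per µl, which coded for histone H2B joined to EGFP in control injections and to rsEGFP in injections against Nr5a2. Injected oocytes were held in arrest with dbcAMP for 5 h, matured for 12 h, fertilised in vitro and cultured in KSOM. Exp2 and Exp3 control embryos therefore shared strain, injection and culture as far as the labels say, and no uninjected embryo was compared.

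The mouse embryo begins life on RNA and protein laid down in the oocyte. At the 2-cell stage much of this maternal RNA is degraded while the embryo's own genome is switched on, in a major wave that brings up retroelements and 2-cell genes such as the Zscan4 family. Later, control passes fully to the embryo's own genes as it cleaves towards the blastocyst.

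RNA of each whole embryo was primed at its poly(A) tail and sequenced by SmartSeq2, without molecular identifiers and without strand, so reads where genes overlap on opposite strands may be assigned to either. Levels are given as counts-per-million (CPM), the share of an embryo's counts that a gene received, so a change in RNA content per embryo is not visible in them, and fewer cells and less RNA per cell cannot be told apart. A gene is called where its adjusted p was under 0.05 in edgeR's quasi-likelihood test with Benjamini-Hochberg adjustment over all genes tested. Log2 differences are Exp2 control over Exp3 control and stand with a standard error (SE). This SE was worked back from the test, as the absolute log2 difference divided by the square root of the test's F statistic. Shared mothers are not recorded in the labels, and p-values therefore weigh differences against embryo-to-embryo spread alone.

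Exp2 control embryos were sequenced less deeply. Library totals were 2.18 M counts at the lowest, 3.86 M at the median and 4.09 M at the highest in the 7 Exp2 control embryos, against 4.24, 5.40 and 7.35 M in the 25 Exp3 control embryos. The groups did not overlap, and the difference of the means was -1.89 M (exact permutation test, two-sided, p = 3e-07, the smallest the test can give). Depth and experiment therefore cannot be told apart. With every embryo thinned to 2148979 counts, Exp2 control embryos had 15470, 16619 and 17279 genes detected at the lowest, median and highest, against 15993, 16544 and 18155 in Exp3 control embryos. That difference of -199 genes in the mean was smaller than the spread between embryos (exact permutation test, two-sided, p = 0.466). No 2 libraries were identical, and the highest correlation between 2 embryos was 0.917.

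Each of the 7 markers of the 2-cell stage had counts in every embryo of both groups, and so did the oocyte markers apart from Mos, which was at 0 in 1 Exp2 control embryo. The summed level of 7 transcripts of the 2-cell stage was 145, 1054 and 2329 CPM at the lowest, median and highest in Exp2 control embryos, against 263, 926 and 4363 CPM in Exp3 control embryos. The 6 oocyte genes summed to 1815, 2556 and 3416 CPM in Exp2 control embryos, against 2274, 3050 and 7679 CPM in Exp3 control embryos, so these ranges overlapped widely. Markers of the cells that surround an oocyte or fertilise it were near 0. The cumulus markers summed to at most 6.43 CPM in Exp2 control and 7.47 CPM in Exp3 control embryos, and Amh was at 0 in all 7 Exp2 control embryos. The sperm markers summed to at most 3.22 CPM in Exp2 control and 7.75 CPM in Exp3 control embryos, with Tnp1, Tnp2 and Smcp at 0 in all 7 Exp2 control embryos. The whole cumulus list, which also holds genes that embryos express such as Amhr2, summed to 201, 259 and 357 CPM in Exp2 control embryos, against 133, 214 and 370 CPM in Exp3 control embryos, and the whole sperm list to 195, 247 and 285 CPM in Exp2 control embryos, against 149, 233 and 366 CPM in Exp3 control embryos. Genes of later cell types summed to 15.2, 35.0 and 144 CPM in Exp2 control embryos, against 10.6, 31.6 and 80.9 CPM in Exp3 control embryos.

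Of 14875 genes tested, 176 were lower in Exp2 control embryos (1.18% of those tested) and 64 were higher (0.43%), together 240 (1.61%). The lower genes had the larger differences, with 127 of 176 changed at least 2-fold, against 17 of 64 of the higher genes. For 48 of the lower genes the highest Exp2 control embryo was below the lowest Exp3 control embryo, and for the higher genes the count of such separations was 0. These 48 were also all such genes among those tested (0.323%). All 7 Exp2 control embryos lay on the same side of the Exp3 control median for 173 of 176 lower and 41 of 64 higher genes. The higher calls rested in part on single embryos: without Exp2 control embryo 3, 26 genes were higher and 125 lower. Leaving out another single embryo gave from 39 (embryo 5) to 69 (embryo 8) higher genes. The split also moved with the scaling, and with size factors from the oocyte-deposited list 139 genes were higher and 89 lower, with the median of all genes at 0.15 on the log2 scale in place of 0.0049. With log library total as a covariate, 8 were higher and 101 lower.

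The knockdown embryos of the same 2 experiments gave a second view of the difference between experiments, in embryos that no control comparison used. Exp2 knockdown against Exp3 knockdown called 1554 of 13177 genes (11.8%), 470 higher (3.57%) and 1084 lower (8.23%). Scaled by library totals alone, the split was 669 higher and 679 lower. Of the 240 genes called between control embryos, 231 were tested in knockdown embryos, 229 had the same sign there and 191 were called with it. These 191 are 82.7% of the control calls tested and 12.3% of the knockdown calls tested in both. By direction, 160 of 167 lower genes and 31 of 64 higher genes were called in both arms. The lower genes had a median log2 difference of -1.62 between knockdown embryos and -1.31 between control embryos, and the higher genes 0.55 between knockdown embryos and 0.84 between control embryos. A test of whether the difference between experiments itself differed between knockdown and control embryos called 0 of 16165 genes (edgeR), while DESeq2 called 1 gene. Before adjustment, 845 genes (5.23%) had p under 0.05 in edgeR.

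**Figure D1:**
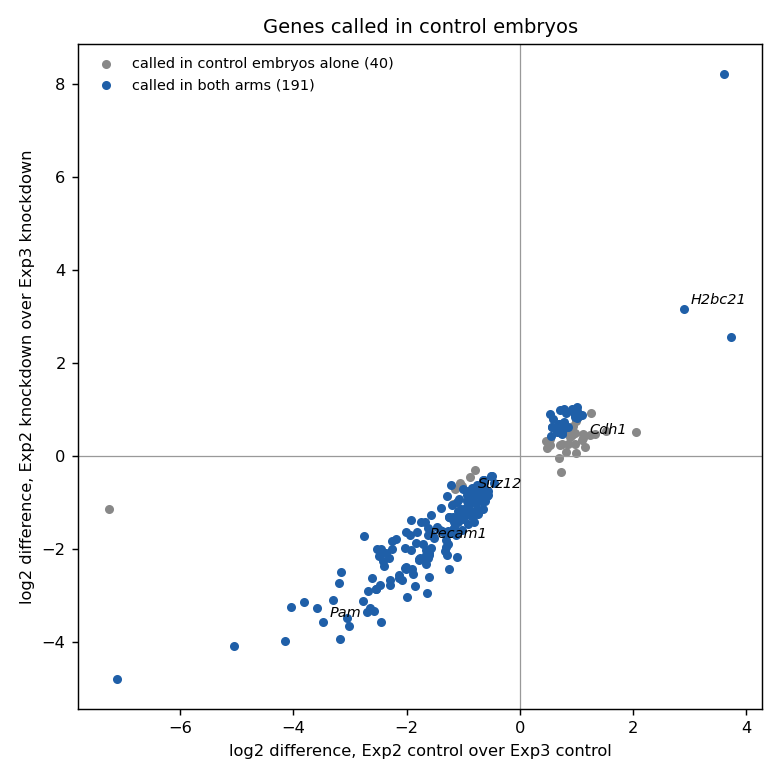
Each point is 1 of the 231 genes called between control embryos and tested in both arms, with its log2 difference of Exp2 over Exp3 in control embryos on the x axis and in knockdown embryos on the y axis, blue where called with the same sign in both arms (191) and grey otherwise. Points lie in the lower left and upper right for 229 of the 231, which have the same sign in both arms.

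Among genes averaging 4 or more in log2 CPM, clone and pseudogene names left out, the 12 with the largest decrease were Pam, Gabra2, Lrtm1, Lrp4, Fermt3, Prune2, Cep97, Znrf3, Jkamp, Slc30a9, Zfp981 and Pecam1. All 12 were also called lower between knockdown embryos, and for 7 of them the groups did not overlap. Pam codes for the enzyme that amidates the end of peptide hormones and lies at chr1:97795114-98095646 on the minus strand (GRCm38, GENCODE M21). It was at 3.66, 7.24 and 12.6 CPM at the lowest, median and highest in Exp2 control embryos, against 23.9, 61.6 and 173 CPM in Exp3 control embryos. Its log2 difference was -3.48 (SE 0.39, adjusted p = 4.35e-07) between control embryos and -3.58 between knockdown embryos. Every Exp2 control embryo was below every Exp3 control embryo for Pam. Lrtm1, a transmembrane protein whose outer part carries leucine-rich repeats, lies at chr14:29018208-29033645 on the plus strand. It was at 2.88, 7.24 and 16.4 CPM in Exp2 control embryos, against 21.0, 55.1 and 140 CPM in Exp3 control embryos, again without overlap (log2 -3.06, SE 0.37, adjusted p = 1.23e-06). In control embryos of experiment 1, Pam was at 66.5, 149 and 467 CPM and Lrtm1 at 74.7, 146 and 432 CPM, so the median of both genes was lowest in Exp2 control, higher in Exp3 control and highest in experiment 1. No test was made of the order over the 3 experiments.

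**Figure D2:**
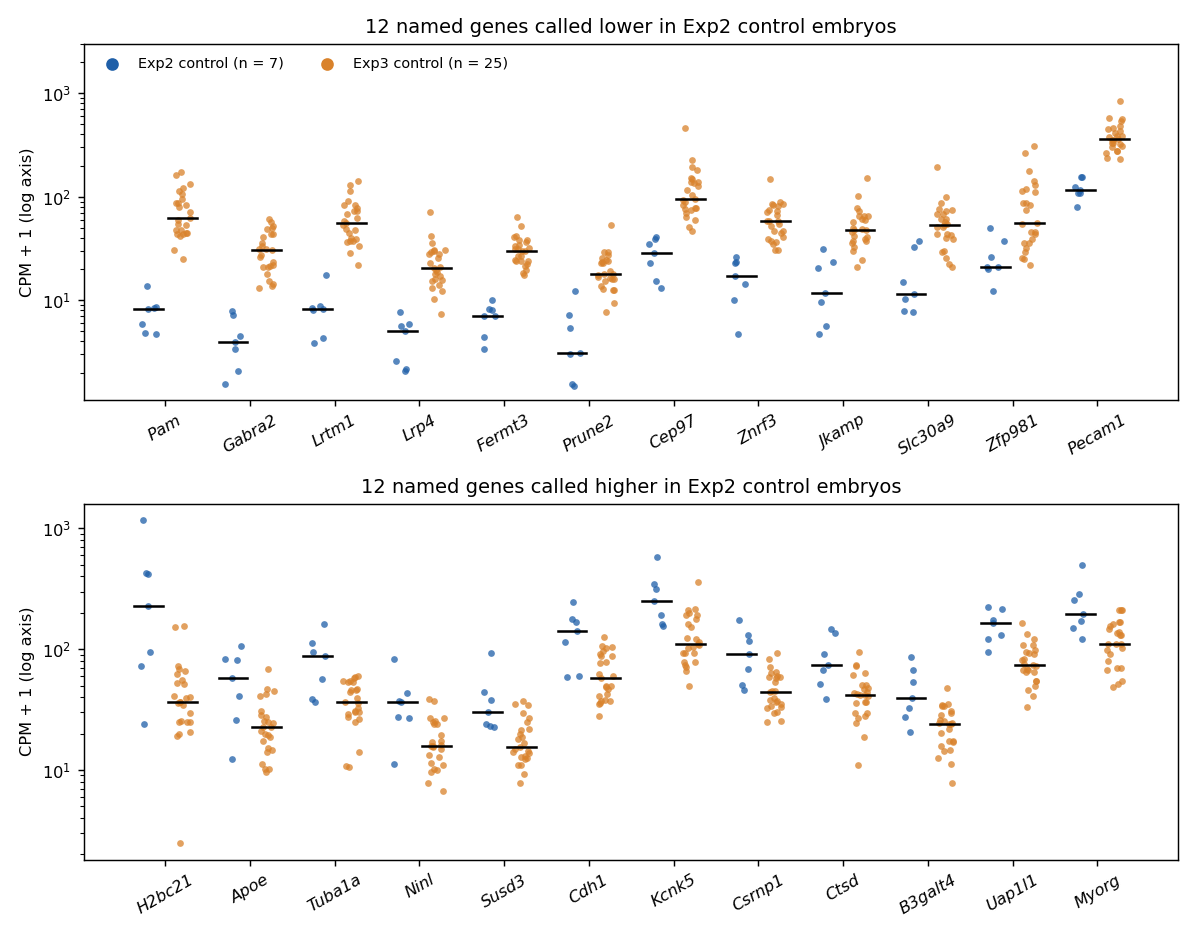
Level of the 12 named lower genes (top) and the 12 named higher genes (bottom) as CPM + 1 on a log axis, 1 point per embryo, with Exp2 control embryos (blue) left of Exp3 control embryos (orange) and a bar at each median. For Pam, the 7 Exp2 control embryos lie between 3.66 and 12.6 CPM, below all 25 Exp3 control embryos, while the groups overlap in all 12 higher genes.

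Gabra2, a subunit of the GABA-A receptor, was at 0.546, 2.94 and 6.94 CPM in Exp2 control embryos, against 12.3, 29.2 and 59.7 CPM in Exp3 control embryos (log2 -3.18, SE 0.41, adjusted p = 3.26e-06). The groups did not overlap. Lrp4, a receptor of the LDL receptor family, was at 1.05, 4.09 and 6.62 CPM in Exp2 control embryos, against 6.29, 19.3 and 69.8 CPM in Exp3 control embryos (log2 -2.70, SE 0.41, adjusted p = 4.77e-05). For Lrp4 the ranges overlapped slightly. Cep97, a centrosomal protein that restrains cilium formation, was at 12.0, 27.3 and 39.9 CPM in Exp2 control embryos, against 45.2, 93.6 and 460 CPM in Exp3 control embryos (log2 -2.18, SE 0.37, adjusted p = 0.000309). Znrf3, a ubiquitin ligase that removes Wnt receptors from the cell surface, was at 3.68, 16.0 and 25.2 CPM in Exp2 control embryos, against 29.7, 56.7 and 148 CPM in Exp3 control embryos (log2 -1.92, SE 0.31, adjusted p = 0.000165). Neither gene overlapped between the groups. Jkamp, a membrane protein bound to JNK signalling, had a log2 difference of -1.90 (SE 0.36, adjusted p = 0.00141). Zfp981, a zinc finger protein, had one of -1.75 (SE 0.48, adjusted p = 0.0494), with 11.2, 20.1 and 48.7 CPM in Exp2 control embryos, against 21.1, 54.9 and 312 CPM in Exp3 control embryos. Zfp981 lost its call without Exp2 control embryo 3, and it was the 1 gene of the 12 that lost its call without some single embryo.

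For several of these genes the counts came from a transcript that does not code for the full protein. In 5 of the 12 (Gabra2, Fermt3, Prune2, Slc30a9 and Pecam1) the transcript with most counts was annotated as a retained intron or as a target of nonsense-mediated decay. Fermt3 codes for kindlin-3, which activates integrins in blood cells, and lies at chr19:6998958-7019469 on the minus strand. Summed over transcripts, Fermt3 was at 2.36, 6.03 and 9.00 CPM in Exp2 control embryos, against 16.6, 29.1 and 63.1 CPM in Exp3 control embryos (log2 -2.36, SE 0.27, adjusted p = 4.35e-07), without overlap. Its retained-intron transcript held 86.6% of the counts and had a median of 1.75 CPM in Exp2 control and 25.9 CPM in Exp3 control embryos (log2 -3.30, adjusted p = 1.82e-07 over transcripts). Its coding transcript in the fit had medians of 3.15 CPM in Exp2 control and 3.52 CPM in Exp3 control embryos (log2 -0.07, adjusted p = 0.997). Pecam1, an adhesion molecule known from endothelial cells, showed the same split and lies at chr11:106654217-106750628 on the minus strand. As a gene it was at 78.2, 115 and 153 CPM in Exp2 control embryos, against 230, 357 and 848 CPM in Exp3 control embryos (log2 -1.72, SE 0.21, adjusted p = 1.9e-06). Its retained-intron transcript, with 87.5% of the counts, had medians of 68.2 CPM in Exp2 control and 315 CPM in Exp3 control embryos (log2 -2.37, adjusted p = 1.69e-07). Its 5 coding transcripts in the fit had log2 differences between 0.18 and 0.90, none of them called, and the one with most counts had medians of 14.0 CPM in Exp2 control and 15.6 CPM in Exp3 control embryos (log2 0.18, adjusted p = 0.98). For both genes the call was thus carried by the transcript with the retained intron.

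The leading transcripts of Prune2 and Slc30a9, a zinc transporter, were retained introns too, with log2 differences of -3.57 (adjusted p = 2.34e-06) and -2.23 (adjusted p = 0.00235). Gabra2 had 96.8% of its counts in a transcript marked for nonsense-mediated decay (log2 -3.37). Pam differed from these, with 98.8% of its counts in a coding transcript (log2 -3.78). In Znrf3 and Cep97, 2 transcripts of the same gene differed in sign, with log2 differences of -2.19 and 0.06 for Znrf3 and of -2.95 and 0.96 (adjusted p = 0.729) for Cep97. The estimated counts divide reads between transcripts that share sequence, so values of transcripts of 1 gene depend on each other. Over all genes tested, 18 of 606 genes led by a retained intron were lower and 1 was higher, against 113 and 57 of 12181 genes led by a coding transcript. The median log2 difference was 0.02 in both classes. Genes led by a processed pseudogene had 23 lower and 3 higher of 657, with a median of -0.14.

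After Pam, the smallest p among symbols that are not clone or pseudogene names belonged to Olfr907 and Tbata. Olfr907, an olfactory receptor gene, was at 2.81, 3.86 and 6.11 CPM in Exp2 control embryos, against 10.9, 18.5 and 34.0 CPM in Exp3 control embryos (log2 -2.14, SE 0.24, adjusted p = 4.35e-07). Tbata, a gene known from thymus and testis, was listed at 0, 0 and 0.262 CPM in Exp2 control embryos, against 1.52, 3.05 and 8.24 CPM in Exp3 control embryos, and no fold is given at such low counts. AW822252, chosen after its values were seen because it had the smallest p of all genes, was at 4.17, 6.17 and 11.1 CPM in Exp2 control embryos, against 28.1, 41.1 and 70.8 CPM in Exp3 control embryos (log2 -2.68, SE 0.22, adjusted p = 5.9e-10). All 3 were lower in Exp2 control embryos without overlap.

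The difference between the experiments followed the base composition of the transcripts. Across 14737 genes with a known leading transcript, the log2 difference rose with GC content (Spearman rho 0.50 across genes, given as a description since genes are not independent replicates). Between knockdown embryos rho was 0.54. Transcript length had a rho of 0.05 between control embryos. The genes called lower had a median GC content of 41.8% and those called higher of 55.7%, against 49.6% for the genes tested. In 6 classes of 1257 genes each, ordered from low to high GC, the median log2 difference was -0.34, -0.18, -0.06, 0.04, 0.17 and 0.30. The lowest class ran from 31.9% to 43.2% GC and held 74 lower and 4 higher calls. The highest class ran from 55.1% to 70.3% GC and held 2 lower and 29 higher calls. Per embryo, a slope on GC content was fitted over 8956 genes to log2 level minus the gene's mean over all 111 embryos. Its sign is thus relative to the average embryo and does not say that level itself rises or falls with GC. This slope was 0.154, 0.339 and 0.361 per 10 percentage points at the lowest, median and highest in Exp2 control embryos. In Exp3 control embryos it was -0.230, -0.075 and 0.044, so all 25 lay below the lowest Exp2 control embryo. Exp2 knockdown embryos had slopes of 0.059, 0.325 and 0.46, against -0.584, -0.098 and 0.079 in Exp3 knockdown embryos, and control embryos of experiment 1 had -0.221, -0.037 and 0.211.

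**Figure D3:**
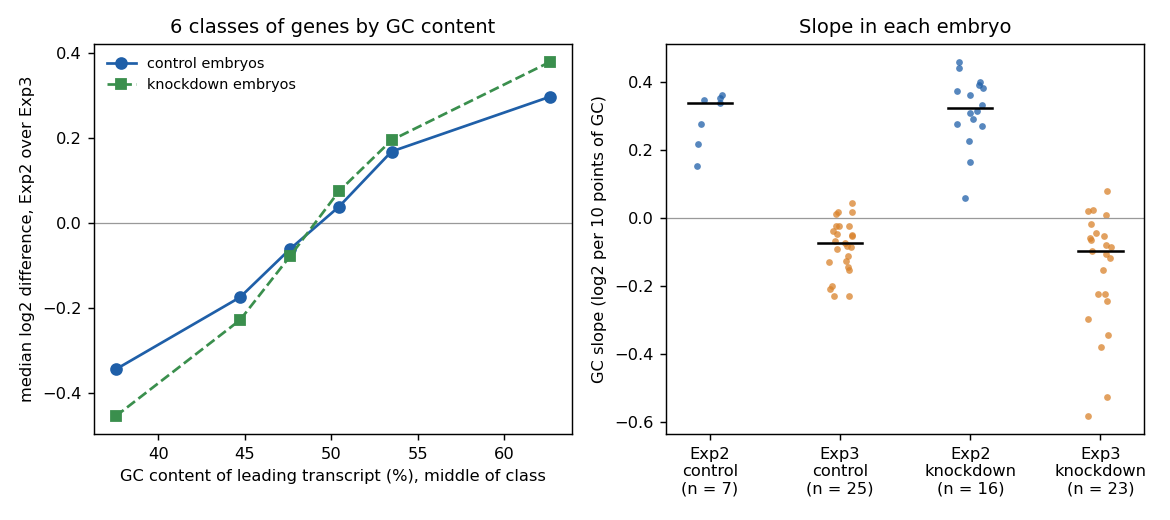
Left, the median log2 difference of Exp2 over Exp3 in 6 classes of genes by GC content of the leading transcript, in control embryos (blue circles) and knockdown embryos (green squares). Right, the slope on GC content of log2 level minus the gene's mean over all 111 embryos, 1 point per embryo with a bar at the median. The 7 Exp2 control embryos lie between 0.154 and 0.361 per 10 percentage points, above all 25 Exp3 control embryos.

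With the trends of GC content and length removed from each embryo, 96 of 14737 genes were called (0.651%), 82 lower and 14 higher. Of the 240 calls above, 88 were kept, 80 of the lower and 8 of the higher. Of the 94 of these 96 that were tested between knockdown embryos with the same correction, 84 were called there too. Of the 12 lower genes named above, 11 kept their call, with Pam at -3.51, and Zfp981 lost it (log2 -1.10, adjusted p = 0.54). Of the 12 higher genes described next, H2bc21 alone kept its call. GC slope, library total and experiment cannot be told apart among these embryos.

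Under the same limits on level and names, the 12 genes with the largest increase in Exp2 control embryos were H2bc21, Apoe, Tuba1a, Ninl, Susd3, Cdh1, Kcnk5, Csrnp1, Ctsd, B3galt4, Uap1l1 and Myorg. The groups overlapped in all 12, and 5 of them (H2bc21, Kcnk5, Ctsd, B3galt4 and Uap1l1) were also called higher between knockdown embryos. Apoe, the carrier of lipids in lipoproteins, was at 11.3, 56.3 and 105 CPM in Exp2 control embryos, against 8.63, 21.6 and 67.5 CPM in Exp3 control embryos (log2 1.23, SE 0.32, adjusted p = 0.0353). Tuba1a, an alpha-tubulin, was at 35.2, 86.1 and 161 CPM in Exp2 control embryos, against 9.68, 35.7 and 59.2 CPM in Exp3 control embryos (log2 1.16, SE 0.27, adjusted p = 0.015). Cdh1, which codes for E-cadherin, the adhesion molecule of the compacting embryo, was at 58.1, 142 and 243 CPM in Exp2 control embryos, against 27.1, 57.0 and 124 CPM in Exp3 control embryos (log2 1.10, SE 0.26, adjusted p = 0.0143). In each of these the median embryo of Exp2 control was more than 2-fold above that of Exp3 control, while the lowest Exp2 control embryo lay inside the Exp3 control range.

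Kcnk5, a background potassium channel, was at 154, 247 and 576 CPM in Exp2 control embryos, against 48.8, 109 and 361 CPM in Exp3 control embryos (log2 1.10, SE 0.27, adjusted p = 0.0203). Ctsd, a lysosomal protease, was at 37.7, 72.6 and 147 CPM in Exp2 control embryos, against 9.89, 40.9 and 94.2 CPM in Exp3 control embryos (log2 1.01, SE 0.26, adjusted p = 0.0334). Uap1l1 was at 93.4, 163 and 221 CPM in Exp2 control embryos, against 31.9, 72.6 and 165 CPM in Exp3 control embryos (log2 1.00, SE 0.21, adjusted p = 0.00593). These 3 were higher in both arms. The centrosomal protein Ninl and the membrane protein Susd3 each had a log2 difference of 1.11 (adjusted p = 0.0374 and 0.0226), the nuclear protein Csrnp1 1.03 (adjusted p = 0.0102), the galactosyltransferase B3galt4 1.01 (adjusted p = 0.0304) and the glycosidase Myorg 0.99 (adjusted p = 0.0288). Without Exp2 control embryo 3, 9 of the 12 (Apoe, B3galt4, Cdh1, Csrnp1, Ctsd, Kcnk5, Myorg, Ninl and Susd3) were no longer called. Counting the loss of any single Exp2 control embryo, 10 of the 12 lost the call. Beside H2bc21, the smallest p-values among higher genes, clone and pseudogene names left out, belonged to Dda1, a partner of a ubiquitin ligase, and Traf7, a ubiquitin ligase. Dda1 was at 206, 340 and 362 CPM in Exp2 control embryos, against 152, 175 and 249 CPM in Exp3 control embryos (log2 0.74, SE 0.12, adjusted p = 0.000171). Traf7 was at 113, 155 and 196 CPM in Exp2 control embryos, against 69.9, 93.8 and 136 CPM in Exp3 control embryos (log2 0.71, SE 0.13, adjusted p = 0.000576).

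H2bc21, a histone H2B gene at chr3:96221119-96223738 on the plus strand, had the largest increase of the 12 (log2 2.90, SE 0.44, adjusted p = 5.08e-05). It was at 21.9, 220 and 1176 CPM in Exp2 control embryos, against 1.47, 35.4 and 160 CPM in Exp3 control embryos. Between knockdown embryos its log2 difference was 3.16 (adjusted p = 4.49e-07), with 3.70, 162 and 415 CPM in Exp2 knockdown embryos, against 0, 15.6 and 48.1 CPM in Exp3 knockdown embryos. In control embryos of experiment 1 it was at 0, 0.450 and 11.1 CPM. The injected marker RNA, which codes for a histone H2B fusion, moved with it. The deposited counts hold 2 marker rows without a gene name, and the one with counts in control embryos of experiments 2 and 3 is called the control marker here, an assignment made from its values. It was at 92.7, 865 and 4689 CPM in Exp2 control embryos, against 2.65, 117 and 581 CPM in Exp3 control embryos, and 4 of the 7 Exp2 control embryos were above the highest Exp3 control embryo. In control embryos of experiment 1 the same row was at most 2.34 CPM.

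Within Exp2 control embryos 2 to 8, the control marker was at 4689, 1700, 1719, 362, 92.7, 311 and 865 CPM, and H2bc21 in the same embryos was at 1176, 420, 411, 90.6, 21.9, 69.3 and 220 CPM. Each embryo with more marker had more H2bc21, with 1 exchange between embryos 3 and 4. The ratio of H2bc21 counts to marker counts was 0.223, 0.247 and 0.255 at the lowest, median and highest in Exp2 control embryos, against 0.207, 0.268 and 0.556 in Exp3 control embryos, which did not separate the groups. The other marker row was at most 1.67 CPM in Exp2 control and 0.533 CPM in Exp3 control embryos. In Exp2 knockdown embryos that other row was at 9.23, 312 and 739 CPM, against 0.529, 26.4 and 86.6 CPM in Exp3 knockdown embryos. Its medians thus differed in the same direction as those of H2bc21 in knockdown embryos. The part of the marker RNA in the H2bc21 counts was not tested in either arm.

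**Figure D4:**
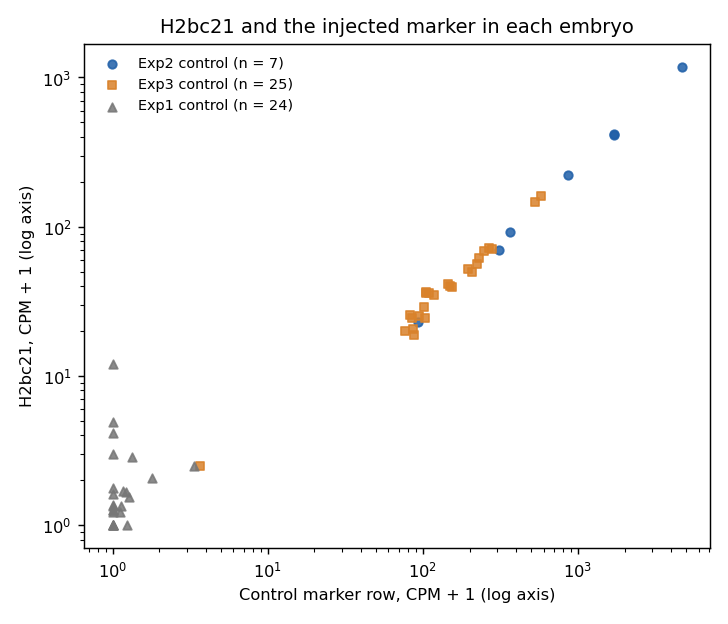
H2bc21 level (y axis) against the level of the control marker row (x axis), both as CPM + 1 on log axes with CPM scaled over all 111 embryos, 1 point per control embryo of experiments 2, 3 and 1. The marker reached 4689 CPM in the 7 Exp2 control embryos, against at most 581 CPM in the 25 Exp3 control and 2.34 CPM in the 24 Exp1 control embryos.

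Genes of the mitochondrial genome code for subunits of the respiratory chain and of ATP synthase. All 13 tested had a negative log2 difference, with a median of -0.36, against 0.0049 over all genes tested, and 6 were called lower, against 1.18% of all genes tested. Near-identical nuclear copies of 5 of them lie next to each other on chromosome 1. The 3 pairs with an exact copy are shown by the ends of their transcripts, 5′ to 3′ along the transcript, because the sequence shows how little separates them: each pair aligns at 100% identity over the whole copy, and capitals mark the bases that the mitochondrial transcript has beyond the end of the copy. Positions are on GRCm38 with GENCODE M21 transcripts.
mt-Co2: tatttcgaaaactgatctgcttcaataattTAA
Gm28661: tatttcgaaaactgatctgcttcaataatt
mt-Atp6: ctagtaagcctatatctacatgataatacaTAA
Gm10925: ctagtaagcctatatctacatgataataca
mt-Co3: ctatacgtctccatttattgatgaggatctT
Gm28437: ctatacgtctccatttattgatgaggatct

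Gm28661 lies at chr1:24614885-24615565 on the minus strand and matches 681 of the 684 bases of mt-Co2 (chrM:7013-7696). Gm10925 lies at chr1:24613974-24614651 and matches 678 of 681 bases of mt-Atp6 (chrM:7927-8607). Gm28437 lies at chr1:24613189-24613971 and matches 783 of 784 bases of mt-Co3 (chrM:8607-9390). Gm29216 at chr1:24615706-24616197 matches mt-Co1 at 99.8% over 483 bases, and Gm28438 at chr1:24612775-24613119 matches mt-Nd3 at 99.7% over 345 bases, with a mean of 0.175 CPM over the 32 embryos. Reads of a pair cannot be told apart within the shared bases, and the estimated counts divide them by model.

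For mt-Co2, which codes for subunit 2 of cytochrome c oxidase, the gene and its copy moved in opposite directions. mt-Co2 was at 357, 974 and 1622 CPM in Exp2 control embryos, against 1629, 2493 and 4350 CPM in Exp3 control embryos (log2 -1.51, SE 0.22, adjusted p = 2.21e-05). Gm28661 was at 1820, 2238 and 3456 CPM in Exp2 control embryos, against 302, 923 and 2078 CPM in Exp3 control embryos (log2 1.26, SE 0.22, adjusted p = 0.000447). Summed, the pair was at 2302, 3314 and 4306 CPM in Exp2 control embryos, against 2627, 3682 and 5948 CPM in Exp3 control embryos, and was not called (log2 -0.20, SE 0.16, adjusted p = 0.659). mt-Atp6, a subunit of ATP synthase, was at 631, 946 and 1900 CPM in Exp2 control embryos, against 1421, 2548 and 3532 CPM in Exp3 control embryos (log2 -1.15, SE 0.20, adjusted p = 0.000447). Its copy Gm10925, of nearly the same length, held more counts than the gene itself, with 4830, 5591 and 7629 CPM in Exp2 control embryos, against 4397, 6455 and 12350 CPM in Exp3 control embryos (log2 -0.20, adjusted p = 0.703). The sum of mt-Atp6 and its copy was not called (log2 -0.41, SE 0.16, adjusted p = 0.239). Gm28437, the copy of mt-Co3, was at 17.7, 159 and 1878 CPM in Exp2 control embryos, against 0, 9.82 and 340 CPM in Exp3 control embryos (log2 3.74, SE 0.80, adjusted p = 0.00629), while mt-Co3 had -0.36 (adjusted p = 0.257). The sum of mt-Co3 and Gm28437 had a log2 difference of -0.24 (adjusted p = 0.469), so none of the 3 sums was called between control embryos. Between knockdown embryos all 3 sums were called lower, mt-Atp6 at -0.83 (adjusted p = 1.04e-05), mt-Co2 at -0.61 (adjusted p = 0.00504) and mt-Co3 at -0.59 (adjusted p = 0.00368).

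The remaining 4 calls of the mitochondrial genome were kept when copies were summed. mt-Atp8, the small ATP synthase subunit encoded beside mt-Atp6, was at 261, 328 and 438 CPM in Exp2 control embryos, against 709, 971 and 1814 CPM in Exp3 control embryos (log2 -1.63, SE 0.19, adjusted p = 4.35e-07). The groups did not overlap for mt-Atp8, nor for mt-Co2 counted alone. mt-Nd2, a subunit of complex I, was at 1122, 1428 and 1994 CPM in Exp2 control embryos, against 1815, 2482 and 4090 CPM in Exp3 control embryos (log2 -0.76, adjusted p = 0.00281). mt-Nd6 had a log2 difference of -0.84 (adjusted p = 0.00239) and mt-Nd3 one of -0.66 (adjusted p = 0.0377), both complex I subunits too. Log2 differences nearest 0 were found in abundant members, with -0.03 for mt-Co1, -0.02 for mt-Nd1 and -0.10 for mt-Cytb, none of them called. The mitochondrial share of all counts was 4.33%, 5.96% and 6.61% in Exp2 control embryos, against 4.90%, 6.84% and 9.40% in Exp3 control embryos, with wide overlap. Counted alone, 12 of the 13 were called lower between knockdown embryos, against 8.23% of all genes tested there, with a median of -0.76. The 13 genes have a median GC content of 37.1%, and with GC and length trends removed their median was 0.20, with mt-Nd1 called higher (log2 0.65), mt-Co2 lower (log2 -0.95) and mt-Atp8 not called (log2 -0.33, adjusted p = 0.867).

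**Figure D5:**
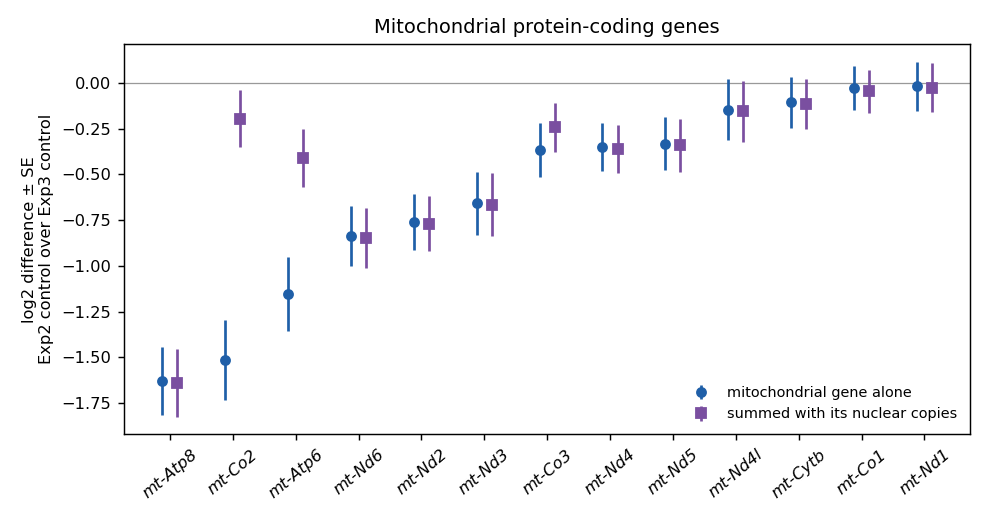
Log2 difference of Exp2 control over Exp3 control for the 13 genes of the mitochondrial genome, counted alone (blue circles) and summed with their nuclear copies (purple squares), with bars of 1 SE to either side. mt-Co2 is at -1.51 alone and at -0.20 when summed, while mt-Atp8 is at -1.63 and -1.64.

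A cluster of zinc finger genes on chromosome 4, a group chosen after its values were seen, held 11 of the 176 lower calls. These 11 were among 20 tested genes of the cluster, against 1.18% called lower over all genes tested, and 19 of the 20 had a negative log2 difference, with a median of -1.05. Of the 336 other genes with a Zfp symbol, 4 were called lower, with a median of -0.07. Zfp979 was at 98.2, 162 and 201 CPM in Exp2 control embryos, against 175, 339 and 473 CPM in Exp3 control embryos (log2 -1.16, SE 0.19, adjusted p = 0.000231). Zfp268, in the same cluster, was at 15.5, 20.2 and 26.5 CPM in Exp2 control embryos, against 26.4, 47.1 and 97.3 CPM in Exp3 control embryos (log2 -1.26, SE 0.21, adjusted p = 0.000231). For both genes the ranges overlapped at their edges. Between knockdown embryos 18 of the 20 were called lower, against 8.23% of all genes tested there, with a median of -1.22. The cluster has a median GC content of 36.1%, and with GC and length trends removed 0 of the 20 were called in either direction and the median was -0.48. Its members are close copies of each other, so reads may be divided between them. Olfactory and vomeronasal receptor genes, also chosen after their values were seen, had 13 of 241 lower and 0 higher, against 1.18% lower and 0.43% higher over all genes tested, with a median of -0.20 and a median GC content of 39.4%. In the class of lowest GC content described above, 5.89% of genes were called lower. With GC and length trends removed, 7 of the 241 receptor genes were lower and 1 was higher. Over all 14737 genes tested that way, 82 were lower (0.556%) and 14 were higher.

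Of 32 gene lists for the processes of the 2-cell embryo, 21, with 753 tested members in all, held no call, against 1.61% called over all genes tested. At that share a short list can be without a call, so nothing is read from the number of such lists. The 42 transcripts of the 2-cell stage had a median log2 difference of -0.21, and the smallest p belonged to Ubtfl1, at 23.3, 155 and 181 CPM in Exp2 control embryos, against 101, 215 and 310 CPM in Exp3 control embryos (log2 -0.64, SE 0.25, adjusted p = 0.247). The 54 oocyte-deposited transcripts had a median of -0.23, and 0 were called by edgeR. Before adjustment, 15 of the 54 had p under 0.05 in edgeR, against 1902 of 14875 over all genes tested. Zp1, a protein of the zona pellucida, came closest, with 124, 154 and 207 CPM in Exp2 control embryos, against 45.0, 110 and 149 CPM in Exp3 control embryos (log2 0.62, SE 0.17, adjusted p = 0.0535). The 17 members of the subcortical maternal complex list, which holds proteins stored below the egg's surface, had a median of -0.44. Its smallest p was that of Nlrp14 (log2 -0.44, adjusted p = 0.0799). The 16 heat shock genes of early genome activation had a median of -0.02, with Hspb1, a small heat shock protein, at 0.90 (SE 0.31, adjusted p = 0.165). The 45 genes of mRNA decay and poly(A) control had a median of -0.15. Between knockdown embryos, where 3.57% of all genes tested were called higher and 8.23% lower, 5 of 54 oocyte-deposited transcripts were higher and 7 lower. Of the subcortical maternal complex 3 of 17 were higher and 2 lower there, and of mRNA decay 3 of 44 were higher and 7 lower. Whether a list differed more in one arm was not tested.

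Lists of general cell function with no call in control embryos had medians close to that of all genes. These medians were -0.11 for 56 spliceosome genes, -0.10 for 70 genes of RNA polymerase II and Mediator, -0.13 for 76 mitochondrial ribosomal proteins and -0.04 for 45 translation factors. Among translation factors Eef2, which moves the ribosome along the mRNA, had a log2 difference of 0.70 (adjusted p = 0.138). The medians were within 0.05 of 0 for 43 proteasome genes, 53 genes of DNA replication, 53 of nuclear transport, 24 of DNA methylation and 37 tRNA synthetases. The 24 genes of the integrated stress response had a median of 0.10, the 22 p53 targets 0.05 and the 27 nuclear receptors 0.13. The 23 pluripotency regulators had the highest median of the lists without a call, 0.30. Sall4, a zinc finger factor of early embryos, was the closest to a call among them, with 191, 311 and 382 CPM in Exp2 control embryos, against 116, 191 and 290 CPM in Exp3 control embryos (log2 0.55, SE 0.16, adjusted p = 0.0792). Lists of cells outside the embryo had medians of 0.12 (11 cumulus and granulosa genes) and -0.02 (7 sperm genes), and the 8 genes of the Y chromosome had 0.16.

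Members with the smallest p in the lists without a call were spread over both directions. Negative log2 differences belonged to Lsm14a, a repressor of maternal mRNA (log2 -0.53, adjusted p = 0.0665), Orc4 of the origin recognition complex (log2 -0.70, adjusted p = 0.0618), Mrps33 of the mitochondrial ribosome (log2 -0.84, adjusted p = 0.0553), Nup153 of the nuclear pore (log2 -0.58, adjusted p = 0.0694) and Taf5 of TFIID (log2 -0.53, adjusted p = 0.079). All of these missed the threshold between control embryos, and between knockdown embryos each but Taf5 was called lower. Nup153, for example, was at 37.9, 50.2 and 60.9 CPM in Exp2 control embryos, against 44.8, 71.3 and 103 CPM in Exp3 control embryos. Positive ones belonged to the amino acid transporter subunit Slc3a2 (log2 0.58, adjusted p = 0.19), the p53 target Sesn2 (log2 0.64, adjusted p = 0.222), the DNA methyltransferase Dnmt3b (log2 0.76, adjusted p = 0.171), the glutamine tRNA synthetase Qars (log2 0.39, adjusted p = 0.262) and the nuclear receptor Esrrb (log2 0.79, adjusted p = 0.32). Of these 5, Qars was called higher between knockdown embryos. Kdm5d, a histone demethylase of the Y chromosome, was at 239, 325 and 546 CPM in Exp2 control embryos, against 282, 523 and 1199 CPM in Exp3 control embryos (log2 -0.55, adjusted p = 0.199). Kdm5d and Uty had counts in all 7 Exp2 control and all 25 Exp3 control embryos. Ddx3y, also of the Y chromosome, had counts in 4 of 7 and 15 of 25, and Eif2s3y in 7 of 7 and 17 of 25. Counts of Kdm5d were thus also found in embryos without counts of Ddx3y, and they are not read as a measure of Y chromosome RNA. The labels do not give the sex of an embryo. Amhr2, from the cumulus list, had 0.55 (adjusted p = 0.412), at up to 170 CPM in Exp2 control embryos, while the 6 defining cumulus markers summed to at most 6.43 CPM there.

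In the 11 lists with a call, the mitochondrial genome had 6 calls and each of the others between 1 and 3. The share called in those others ran from 1.22% (cytosolic ribosomal proteins) to 5% (trophectoderm and epithelium), against 1.61% over all genes tested. With so few calls per list, nothing is read from them about a list as a whole. Suz12, a core subunit of the Polycomb repressive complex 2, was at 88.5, 133 and 160 CPM in Exp2 control embryos, against 116, 223 and 299 CPM in Exp3 control embryos (log2 -0.86, SE 0.16, adjusted p = 0.000771). It kept its call with GC and length trends removed (log2 -0.61, adjusted p = 0.0266). Bmi1, a subunit of the Polycomb repressive complex 1, was at 198, 257 and 332 CPM in Exp2 control embryos, against 313, 392 and 592 CPM in Exp3 control embryos (log2 -0.69, SE 0.14, adjusted p = 0.00268). Bmi1 lost its call with those trends removed (log2 -0.13, adjusted p = 0.955). Kmt2d, a histone H3 lysine 4 methyltransferase, went the other way (log2 0.54, adjusted p = 0.0171). These were the 3 calls among 70 histone modifying enzymes, whose median was 0.00.

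Chaf1a, the large subunit of the chromatin assembly factor that loads histones behind the replication fork, was the 1 call among 40 genes of genome activation. It was at 106, 190 and 201 CPM in Exp2 control embryos, against 47.1, 96.8 and 150 CPM in Exp3 control embryos (log2 0.78, SE 0.17, adjusted p = 0.00593). Creld2, an ER stress gene, was the 1 call among 24 of its list, with 82.6, 173 and 249 CPM in Exp2 control embryos, against 62.5, 92.4 and 148 CPM in Exp3 control embryos (log2 0.82, SE 0.16, adjusted p = 0.00262). Pkm, pyruvate kinase, was the 1 call among 38 genes of pyruvate and lactate metabolism, at 239, 452 and 756 CPM in Exp2 control embryos, against 233, 320 and 420 CPM in Exp3 control embryos (log2 0.59, SE 0.15, adjusted p = 0.0279). Cdh1 was the 1 call among 20 trophectoderm genes and H2bc21 the 1 call among 21 histone genes. Over all genes tested, 1.61% were called.

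Of 79 nuclear genes of oxidative phosphorylation, whose products join the mitochondrial subunits, 1 was higher and 1 lower, with a median of -0.04. That is 2.53% called, against 1.61% over all genes tested. Cyc1, cytochrome c1, was at 58.6, 85.3 and 137 CPM in Exp2 control embryos, against 18.0, 47.0 and 75.8 CPM in Exp3 control embryos (log2 0.93, SE 0.20, adjusted p = 0.0081). Cox6c, a subunit of cytochrome c oxidase, was at 12.1, 28.1 and 39.0 CPM in Exp2 control embryos, against 29.1, 41.8 and 110 CPM in Exp3 control embryos (log2 -0.87, SE 0.23, adjusted p = 0.0388). The 2 calls had opposite signs, and nothing is read from them about the nuclear partners as a set. Of 46 genes of G2 and mitosis, Espl1, the separase that cleaves cohesin, was higher (log2 0.79, SE 0.21, adjusted p = 0.0473) and Ccne2, cyclin E2, was lower (log2 -1.05, SE 0.29, adjusted p = 0.0487). Of 82 cytoplasmic ribosomal genes, Rps27l was lower (log2 -0.70, SE 0.16, adjusted p = 0.012). Of 109 ribosome biogenesis genes, Nol8 (log2 -0.67, adjusted p = 0.00986) and Mphosph10 (log2 -0.76, adjusted p = 0.037) were lower, with list medians of -0.05 and -0.09. Without Exp2 control embryo 3, Ccne2, Cox6c, Espl1, Kmt2d, Mphosph10, Pkm, Rps27l and Zfp981 were no longer called. With GC and length trends removed, 3 of the 32 lists held a call, those of the mitochondrial genome, the histone modifying enzymes and the histones. Over all genes tested that way, 0.651% were called.

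Nr5a2 itself, the target of the knockdown that these control embryos did not receive, was at 31.4, 105 and 199 CPM in Exp2 control embryos, against 41.0, 77.6 and 231 CPM in Exp3 control embryos. The ranges overlapped almost entirely, and the gene was not called (log2 0.32, SE 0.29, adjusted p = 0.713). In control embryos of experiment 1 it was at 63.3, 113 and 234 CPM.

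The authors' deposited table of batch-adjusted values was read for the same contrast. With each embryo scaled to the same total, it gave 0 called genes between control embryos, against 240 from the counts. The contrast is between experiments and the table was adjusted for batch, so a lack of calls can follow from the adjustment itself. Neither this count nor the signs below are therefore a second reading of the contrast. The 43 called genes among those named had log2 differences between -0.26 and 0.79 in it, and 22 of the 43 had the opposite sign to that in the counts.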

How the data were processed

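Single 2-cell embryos were sequenced by SmartSeq2, 1 library each. The authors' deposited table of 119358 transcript rows holds expected counts (estimated counts), not normalized, per the file headers. Per the submitters' processing notes, kallisto 0.46.1 and Trim Galore 0.6.2 were used beside bcl2fastq, with DESeq2 1.32.0 in R 3.5.1. Those notes name 2 builds, mm10 and hg19, and no role for either. Which annotation the index used is not given in the sources. A second deposited table holds the authors' batch-adjusted values, used as a score since no method is stated, and only as an alternative. From the authors' deposited comparison table, which gives log2 fold changes and p-values of knockdown over control, only gene names and chromosomes were used.

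Transcripts were summed to genes by that table's names: 117194 rows had a name, giving 35973 gene names, of which 30 joined more than 1 identifier. The 2164 unnamed rows (median 1.11% of counts in Exp2 control and 1.02% in Exp3 control embryos) were left out. Sums were rounded. Groups came from treatment labels and titles. edgeR 4.0.16 in R 4.3.3 was run with TMM scaling, filterByExpr, the quasi-likelihood test and Benjamini-Hochberg adjustment over all genes tested, on the 32 control embryos (30 residual degrees of freedom) without covariates, and separately on the 39 knockdown embryos. Named genes were the 12 per direction with the largest fold, the 3 per direction with the smallest p, up to 2 called members per direction of each of the 32 lists (where none was called, the 1 of smallest p), and Nr5a2, Lrtm1 and Pam. The members, lists and rules were chosen with earlier results of these data known. Leading transcripts, GC content and positions came from GENCODE M21. Offsets for GC content and length were loess fits per embryo (span 0.5, genes of at least 10 CPM in the mean). Copies of mitochondrial genes were found with BLAST+ 2.17.0 (identity of at least 90% over at least 50% of either transcript). GC slopes used log2(CPM + 1) minus each gene's mean over all 111 embryos. Alternatives included limma 3.58.1, DESeq2 1.42.0, other scalings and filters, thinned counts and leaving out embryos. The fits were tested on simulated data.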

Additional observations from a re-analysis of the deposited data

Results flagged for a closer look

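Over 47 checks of single values within Exp2 control embryos, 1 stood apart. The library total of Exp2 control embryo 2 was 2.18 M counts, while the other 6 lay between 3.48 and 4.09 M, a gap of 0.682 of the whole range. Chance alone marks about 1 in 20 groups. Without that embryo 227 genes were called, 64 higher and 163 lower. Its control marker level, 4689 CPM, was the highest of the 7.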

How the results depend on the processing

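Between control embryos, 240 genes were called. The count was 405 with DESeq2, 365 for transcripts in place of genes, 109 with log library total as a covariate (8 higher, 101 lower), 96 with GC and length offsets, 97 with GC offsets alone, and 134 without Exp2 control embryos 2 and 3. Leaving out 1 embryo at a time gave 151 to 246. Without a filter on low counts it was 355 (188 higher, 167 lower). The batch-adjusted table gave 4637 unscaled and 0 when each embryo was scaled to the same total. Being adjusted for batch, it is no independent check of a contrast between experiments. Between knockdown embryos, 1554 genes were called, against 439 with GC and length offsets and 0 in the batch-adjusted table scaled that way. The test of the difference between arms gave 0, against 83 without a filter, 1 with DESeq2 and 1 with GC and length offsets.

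Embryo numbers did not pair the samples: 1 of 7 Exp2 control embryos correlated best with its own number, with correlations of -0.408 to 0.434. With embryo number as a replicate block, 22 genes were called between control embryos and 401 between knockdown embryos. The difference in library total was -1.54 M in medians and -1.97 to -1.65 M leaving out 1 embryo. The difference in genes detected was -329 to -27.0 leaving out 1 embryo, and 49.2 at a minimum of 10 counts.

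Of 43 called genes named, 27 lost the call with GC and length offsets, 25 with the depth covariate, 34 with the block and 17 without embryo 3. The limit of the block given above holds for its 34 too. In the unscaled batch-adjusted table, where the median of all genes was -0.69, 19 of the 43 called genes reversed: H2bc21 (-0.79), Tuba1a (-0.13), Ninl (-0.26), Susd3 (-0.40), Cdh1 (-0.23), Kcnk5 (-0.57), Csrnp1 (-0.77), Ctsd (-0.41), B3galt4 (-0.86), Uap1l1 (-0.68), Myorg (-0.59), Dda1 (-0.46), Traf7 (-0.80), Cyc1 (-0.39), Creld2 (-0.76), Espl1 (-0.86), Chaf1a (-0.60), Kmt2d (-0.95) and Pkm (-0.83). Named genes without a call that reversed there were Hspb1 (-0.45), Zp1 (-0.74), Eef2 (-0.90), Slc3a2 (-0.54), Sesn2 (-0.81), Sall4 (-0.56), Dnmt3b (-0.54), Qars (-1.16), Esrrb (-0.71), Amhr2 (-0.93) and Nr5a2 (-0.79). The cause of these changes was not tested. Of 800 recomputed list medians, 43 moved by more than 1 SD. Depth limits what can be said of genes near 0 CPM in Exp2 control embryos, such as Tbata.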
